A study of Mus musculus with 24 samples.

Results

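Dac51-treated melanoma cells gave 9850 m6A peaks in 5963 genes, and these peaks are described here against those of untreated control cells. The members are all peaks of the deposited exomePeak list for the Dac51 library. They make up 9850 of the 29140 peaks in the 3 deposited lists. The comparison list, from the same cells given DMSO, holds 8479 peaks in 5305 genes.

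The cells were B16-OVA, a C57BL/6 mouse melanoma line that expresses ovalbumin. The treated group carried the control hairpin shNC and received 5 µM Dac51 for 48 hours, a small molecule developed as an inhibitor of FTO. The untreated group also carried shNC and received DMSO, the solvent. A further m6A library came from shFto cells, which carry a hairpin against Fto and received DMSO, and which held 10811 peaks in 6471 genes. Each of the 3 conditions had 1 antibody library and 1 input library. No m6A difference below therefore has a replicate check, and a difference in treatment, antibody yield or depth between the libraries cannot be told apart. The series also holds RNA-seq of shFto and shNC tumour cells without Dac51, with 3 libraries a group, which was used for RNA levels and as a separate readout. Neither the identity of the shFto line behind each library nor the origin of the RNA-seq replicates (cultures or repeat libraries) is stated in the labels.

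N6-methyladenosine (m6A) is a methyl mark that a METTL3 and METTL14 writer complex places on adenosines of messenger RNA, mostly in long internal exons and near stop codons. Demethylases called erasers (FTO and ALKBH5) remove it, and reader proteins of the YTH and IGF2BP families bind marked RNA and influence its decay, translation or stability. FTO also removes the related mark m6Am, which sits next to the cap when the first transcribed base is A, and m6A antibodies bind both marks. In m6A-seq, RNA is cut into short fragments, an antibody pulls down the marked ones, and a peak is an exonic stretch where the antibody library outnumbers the input. The fold enrichment of a peak is the authors' ratio of antibody to input. It reports how marked the RNA of a stretch is relative to its abundance, and not how much RNA there is.

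The start of a transcript is the place where the sequence at a peak can be read directly, because the RefSeq table of the build GRCm38.p6 (the same assembly as mm10) gives the bases around each annotated start. Of the Dac51 peaks, 7553 belonged to a gene with a start in that table, and 188 of them (2.49%) had their 5′ edge within 50 bases of it. The 6 printed here had their edge exactly at the start, shared no base with a shNC peak, and had the most negative log10 scores of the false discovery rate (FDR) in that class. Each line gives 5 bases before the start and 25 from it, with the first transcribed base in capitals.
Atp5g3: cggatAagagccgcaccgcgcttgcgcgcc
Ybx1: cgtccCgccattctcgctagttcgatcggt
Hnrnpm: ttactGgtcgttcggggtcacgtgagcgcg
Rundc1: cgtgcGggcggcgtttccgggaagatggcg
Slc39a9: atccgGaagtgggagtaatgaagaggtgcc
Krit1: ccccgGaagttattgcccggcgccggtagc
The windows lie at chr2:73911302-73911331 (minus strand), chr4:119294489-119294518 (minus), chr17:33685434-33685463 (minus), chr11:101425080-101425109 (plus), chr12:80644210-80644239 (plus) and chr5:3803160-3803189 (plus). The peak of Atp5g3, which encodes a subunit of the mitochondrial ATP synthase, had a fold enrichment of 2.01 and is the only one of the 6 that starts with A. Ybx1, an RNA-binding protein gene, starts with C and had 1.57. The 4 others start with G, with 3.41 for the splicing factor gene Hnrnpm, 6.27 for Rundc1, 2.92 for the zinc transporter gene Slc39a9 and 4.49 for Krit1. Sequences of peaks inside genes were not analysed here.

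The cells were melanoma cells by their RNA. In the 3 shNC RNA-seq libraries, 18 of 20 melanocyte lineage genes reached 1 CPM (the unit CPM is a gene's counts scaled to the library's total after TMM adjustment), and their summed level was 20249 to 21279 CPM. Of 20 immune markers 11 were at 0, 2 reached 1 CPM, and the list summed to 7.37 to 9.03 CPM. Ptprc, Cd3e, Cd8a and Itgam were all at 0, and the T cell kinase gene Lck was at 4.76 CPM. Of 16 fibroblast, endothelial and epithelial markers 4 reached 1 CPM, and the list summed to 11.3 to 14.4 CPM. The RNA libraries held 11152404 to 19665589 counts. Fto RNA, the target of the hairpin, was at 107, 108 and 91.8 CPM in the shNC libraries and at 31.7, 33.5 and 28.2 CPM in the shFto libraries.

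Peaks of the Dac51 library were more enriched, wider and more numerous than those of the shNC library. The median fold enrichment was 5.75 in the Dac51 list against 5.05 in the shNC list, and 31.6% against 26.0% of the peaks reached 10. The median width was 297 against 271 bases, and the peaks covered 3589 against 2873 kb of exon. The log10 FDR score was minus infinity for 579 Dac51 peaks and 220 shNC peaks. The weakest log10 FDR scores were −1.3 and −1.39, so both lists end at nearly the same threshold. The shFto list stood at a median fold enrichment of 6.19, a median width of 299 bases and 34.6% of peaks at 10 or more.

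Most Dac51 peaks lay where the untreated cells had one. Of the 9850 Dac51 peaks, 7040 (71.5%) shared at least 1 exonic base on the same strand with a shNC peak and 2810 did not. Of those 2810, 1604 were further peaks in genes that the shNC list also names, and 1206 were in genes it does not. In the other direction, 7282 shNC peaks (85.9%) shared bases with a Dac51 peak. The Dac51 peaks that shared none were weak, with a median fold enrichment of 2.66 and a median width of 150 bases, against 7.94 and 360 for those that shared bases.

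Matching peaks one to one by the most shared bases gave 6883 pairs, 3 of them between peaks with different gene names. In 5367 pairs (78.0%) the Dac51 peak had the higher fold enrichment, in 1493 the shNC peak had, and 23 were equal. The log2 ratio of Dac51 to shNC had a median of 0.51, a ratio of 1.42, with quartiles of 0.06 and 0.96 and an SD of 0.78 over pairs. A ratio of 2 or more was found in 1624 pairs (23.6%), and a ratio of 2 or more in the other direction in 192 (2.79%). Measured from the median of all pairs instead, 575 pairs were 2-fold higher and 519 were 2-fold lower. Values of single genes are given here as deposited. Of the 79 genes named with a ratio, 7 that were higher in Dac51 fall below shNC when measured from that median, Fto, Alkbh5, Junb and Jund among them. The Dac51 peak was wider in 4475 pairs, narrower in 1648 and of equal width in 760.

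**Figure D1:**
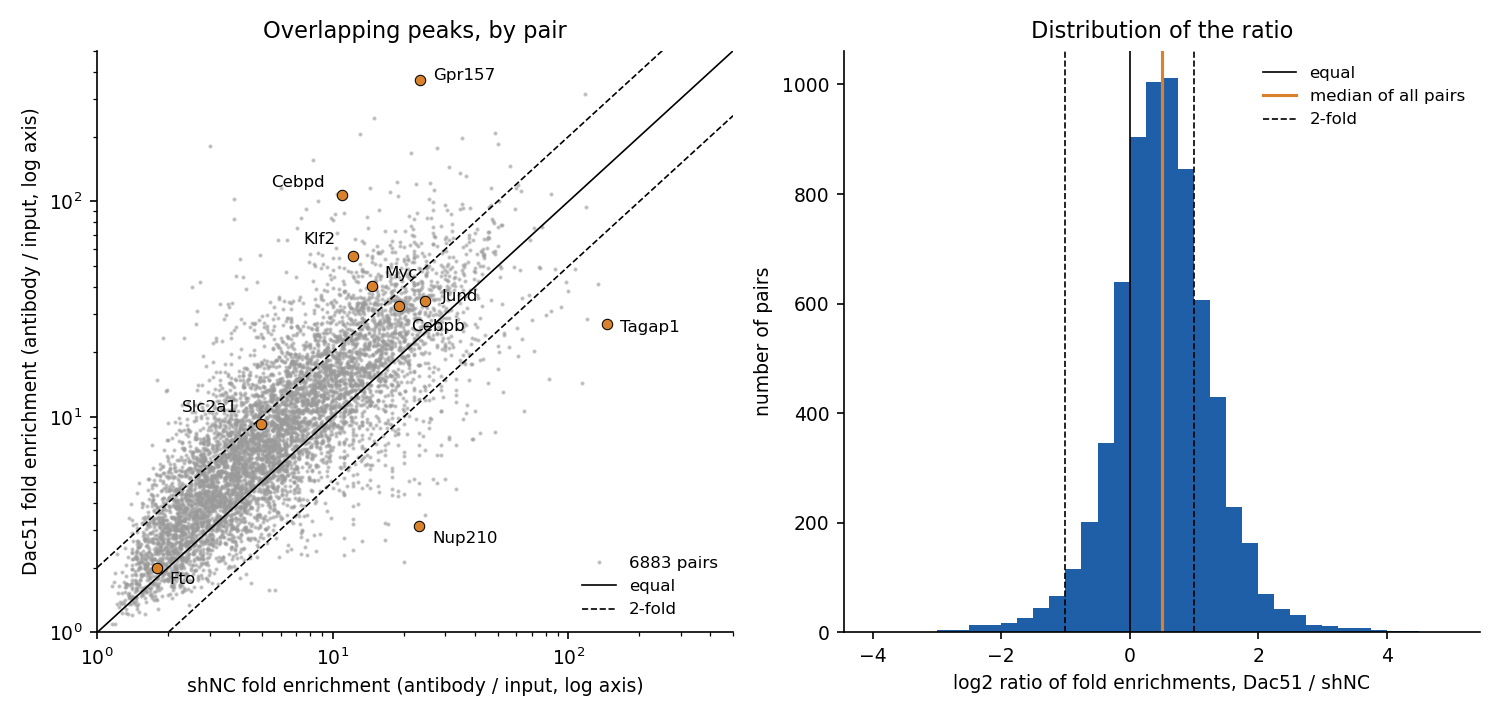
Left, the fold enrichment of each of 6883 paired peaks in the Dac51 list against the shNC list, both on log axes, with solid and dashed lines for equal values and 2-fold differences and 10 named genes in orange. Right, the number of pairs by log2 ratio as a histogram. Most points lie above the line of equality, and the median of 0.51 (orange line) lies between no difference and 2-fold.

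The 2-fold limit falls in a dense part of the distribution. The sialyltransferase gene St3gal1 stood just past it with 4.6 in Dac51 and 2.3 in shNC, and Kmt2a just short of it with a pair at 7.25 and 3.63. On the lower side A930004D18Rik had 8.15 and 16.3, just past the limit, and the factor gene Dmrta2 had 4.22 and 8.42, just short of it.

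The median ratio differed more between weak and strong peaks than between genes of low and high RNA level. With the pairs ranked by mean fold enrichment into 5 equal bins, the median log2 ratio was 0.28 in the lowest bin, 0.49 and 0.60 in the next, and 0.61 and 0.64 in the highest. In 5 bins by shNC RNA level it stayed between 0.46 and 0.56. The spread differed by RNA level, with an SD of 1.08 in the lowest bin (up to 14.5 CPM) and 0.54 in the highest (over 113 CPM). In the lowest of these bins 31.5% of pairs were 2-fold higher and 8.21% were 2-fold lower, against 13.7% and 0.508% in the highest. Position in the gene made little difference, with medians of 0.47 at annotated starts, 0.51 within 2 kb of the annotated gene end and 0.51 elsewhere.

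The share of expressed genes with a peak showed the same comparison without pairing. Of the 8922 genes at 10 CPM or more in shNC RNA-seq, 54.9% had a Dac51 peak and 47.8% had a shNC peak. Among genes between 1 and 3.70 CPM, the lowest of 10 equal bins of the genes at 1 CPM or more, the shares were 27.5% and 26.9%. In the bin from 75 to 109 CPM they were 58.6% and 50.7%. In the highest bin, from 188 CPM up, both shares were lower than in the middle bins, at 45.4% and 37.1%.

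**Figure D2:**
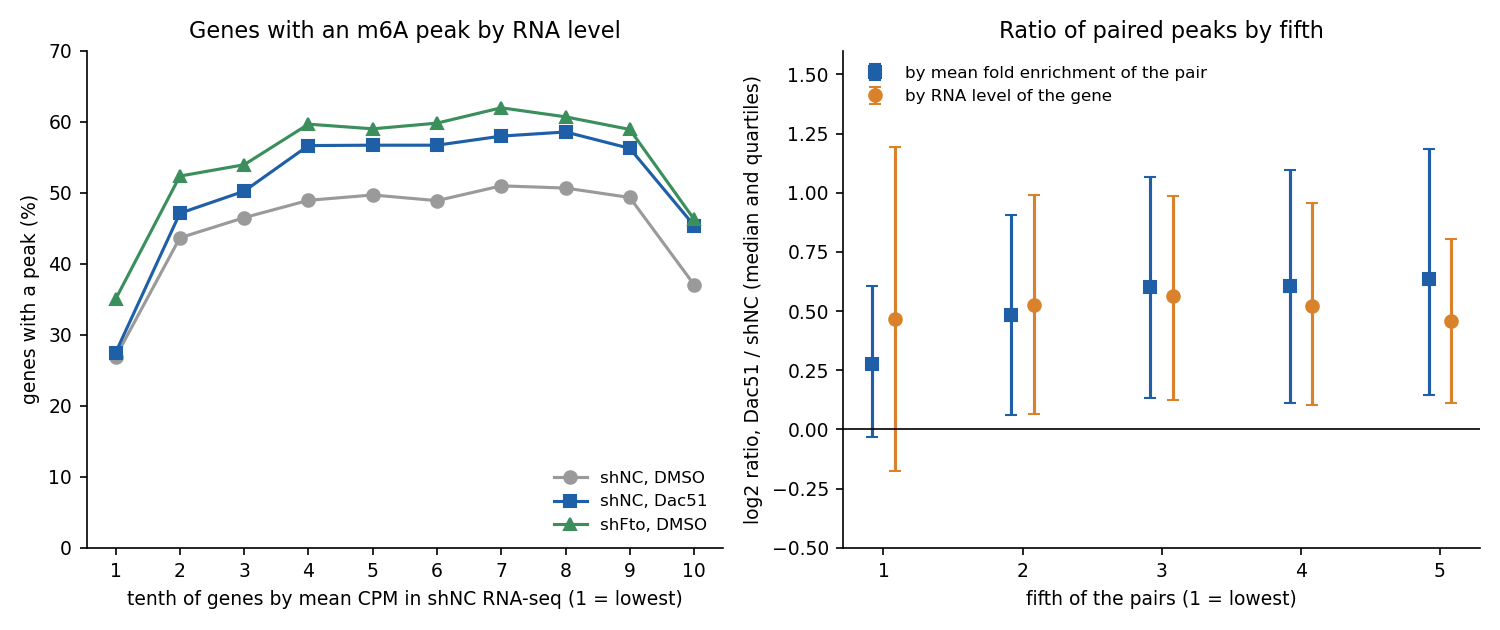
Left, the share of genes with at least 1 peak in each of the 3 lists, in 10 bins of the genes at 1 CPM or more ranked by mean shNC RNA level. Right, the median log2 ratio of paired peaks (bars show the quartiles) in 5 bins by the mean fold enrichment of the pair and in 5 by the RNA level of its gene. The Dac51 share lies above the shNC share in each of the 10 bins, from 27.5% against 26.9% in the lowest to 45.4% against 37.1% in the highest.

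Dac51 and shFto cells can be set beside each other without the shared control. Pairing the Dac51 peaks with the shFto peaks in the same way gave 8090 pairs with a median log2 ratio of −0.05, quartiles of −0.49 and 0.36 and an SD of 0.77. In 507 of them (6.27%) Dac51 was 2-fold or more above shFto, and in 769 (9.51%) it was 2-fold or more below. The comparisons of Dac51 and of shFto with shNC use the same shNC library, so for named genes the 3 values are given side by side only.

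The transcription factor genes of the AP-1 and C/EBP families, which drive immediate early and stress programmes, carried some of the most enriched peaks of the Dac51 list. Jun, the founding AP-1 member, had 1 Dac51 peak of 2472 bases at chr4:95049751-95052222 that began at the annotated start, with a fold enrichment of 103. The shNC list gave Jun 2 peaks, at 43.6 and 3.82, and the shFto list 2, at 80.2 and 7.55. The Dac51 peak covered both shNC peaks, and more shared bases paired it with the weaker one, at a log2 ratio of 4.75. Against the stronger shNC peak the log2 ratio was 1.24, so the size of the Jun difference depends on the matching but not its direction.

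Cebpd, a C/EBP factor gene induced in inflammation, had a fold enrichment of 107 in Dac51, 10.9 in shNC and 183 in shFto for a peak at chr16:15888029-15888505. Its RNA was low, at 5.84, 3.77 and 3.86 CPM in the 3 shNC libraries (4.49 ± 1.17, SD, n = 3), in the range where pairs spread most. Cebpb, which encodes the C/EBP factor of acute inflammatory responses, had 32.7 in Dac51, 19.0 in shNC and 28.0 in shFto at chr2:167689837-167690283. That ratio, 0.78 on the log2 scale, lies within the middle of all pairs. Junb had 16.2, 12 and 19.0 for its stronger peak, and Jund had 34.5, 24.7 and 25.3. For Junb and Jund the Dac51 value was above the shNC value by less than the median of all pairs (0.43 and 0.48 against 0.51). Fos and Batf, partners of Jun proteins, had 8.92 against 2.82 and 23.2 against 6.00 in Dac51 and shNC, at 2.69 and 5.55 CPM. Atf3, a stress-induced member of the family, went the other way in its pair. Its single Dac51 peak of 1198 bases had 6.85, and the shNC list gave 3 peaks there, at 3.98, 20 and 6.11. The pair used the shNC peak of 20, and the others were below the Dac51 value. That shNC peak had a log10 FDR score of −4.63, against −123 for the Dac51 peak, at 4.46 CPM. Over the list, 11 of 17 AP-1 genes had a Dac51 peak and 12 a shNC peak. The top pair (the one with the highest mean fold enrichment) was higher in Dac51 for 8 of 11 genes and 2-fold higher for 5, with a median log2 ratio of 0.48. Over all 4754 genes with a pair, the top pair was higher in 79.1%, 2-fold higher in 25.5% and 2-fold lower in 3.07%, with a median of 0.54. Among all genes at 10 CPM or more, 54.9% had a Dac51 peak and 47.8% a shNC peak. Of the 7 C/EBP genes 5 had a Dac51 peak and 4 a shNC peak, and all 4 pairs were higher in Dac51.

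Myc, the growth factor-regulated transcription factor gene, had its main peak close to the gene end at chr15:61989462-61990181. The fold enrichment was 40.3 in Dac51, 14.6 in shNC and 35.0 in shFto, with 2 weaker Dac51 peaks at 2.06 and 1.62. The RNA was abundant and even, at 228, 223 and 217 CPM in shNC. The genes of its dimer partners and competitors also had higher values in Dac51. Max had 7.06 against 3.31, the MAX partner Mxd1 7.60 against 2.28, and the MAX-binding repressor Mga 26.0 against 14.1. All 6 pairs of the MYC, MAX and MXD list were higher in Dac51 and 3 were 2-fold higher, with a median log2 ratio of 0.99. Over all genes with a pair these values were 79.1%, 25.5% and 0.54. Mxd4 and Mxi1 had a weak Dac51 peak and no shNC peak, at 2.07 and 1.47, and at the place of the Mxi1 peak the shFto list had one of 2.42.

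**Figure D3:**
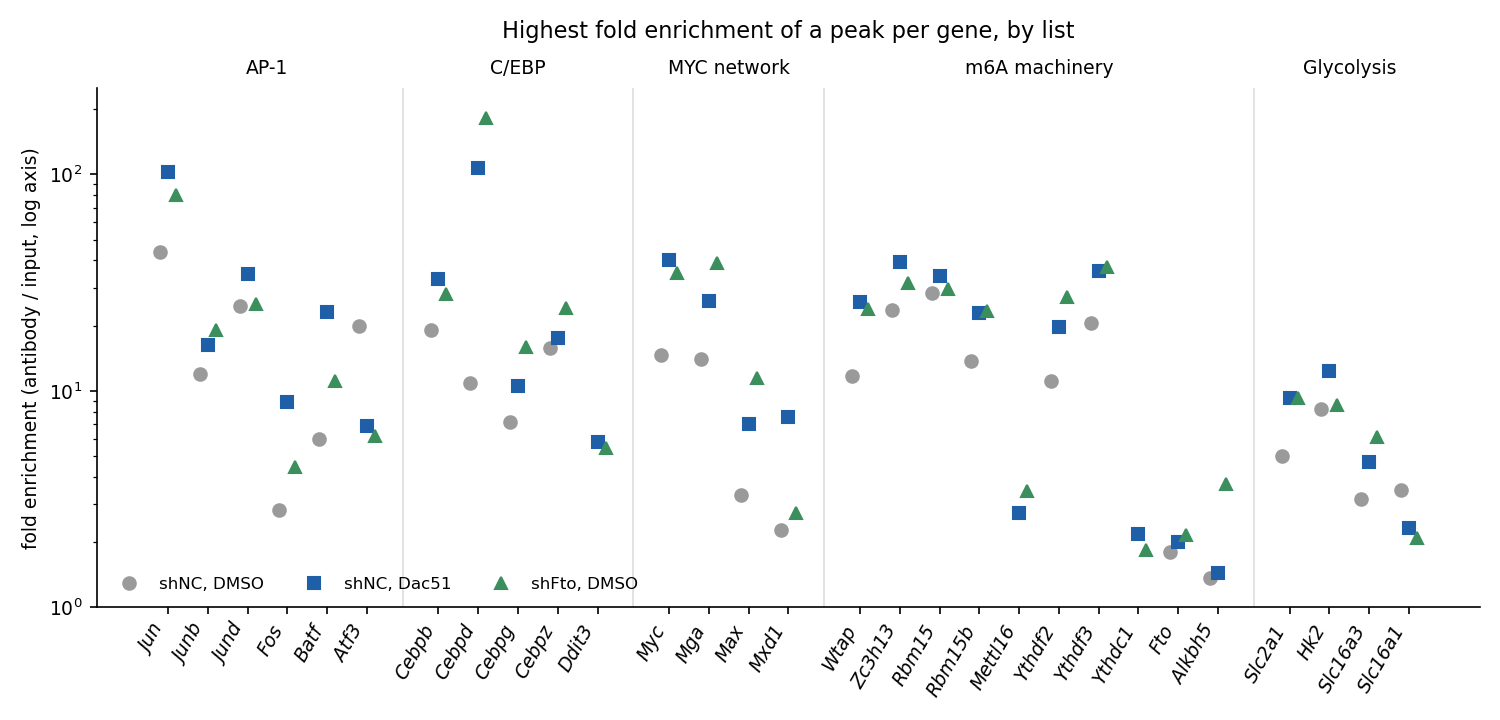
The highest fold enrichment of any peak of each gene (log axis) in the shNC, Dac51 and shFto libraries, 1 library each, for AP-1, C/EBP, MYC network, m6A machinery and glycolysis genes. A missing symbol means that the list holds no peak for the gene. The Dac51 symbol lies above the shNC symbol for all genes shown with both except Atf3 and Slc16a1.

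The genes of the m6A machinery were themselves marked. Among writers, Mettl3 and Mettl14, which encode the catalytic pair, had no peak in any of the 3 lists, at 24.8 and 57.9 CPM. Their partners had strong ones. Wtap, which holds the writer complex together, had 25.7 in Dac51, 11.7 in shNC and 23.8 in shFto for its strongest peak. Zc3h13, a zinc finger cofactor, had 39.2, 23.7 and 31.6. Rbm15, which recruits the complex to RNA, had 2 Dac51 peaks and 3 shNC peaks, and its stretch of 2220 bases stood at 33.8 in Dac51. The partner with most shared bases had 12.8, a log2 ratio of 1.40, and the partner with the highest fold enrichment gave 0.26. Its paralogue Rbm15b had 21.3 against 13.7. Mettl16 and Zcchc4, methyltransferase genes outside the complex, had a Dac51 peak without a shNC peak, at 2.72 and 3.73. The shFto list named both, at 3.43 and 3.92. Of 11 writer genes 7 had a Dac51 peak and 5 a shNC peak. The shares over all genes at 10 CPM or more were 54.9% and 47.8%. All 5 writer pairs were higher in Dac51, 2 of them 2-fold. Over all genes with a pair, 79.1% were higher and 25.5% 2-fold higher.

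The erasers carried only weak peaks. Fto had 2.00 in Dac51, 1.80 in shNC and 2.16 in shFto. Alkbh5 had 1.44 in Dac51 and 1.36 in shNC for an overlapping peak, while the shFto list placed its 2 peaks elsewhere in the gene. Both ratios (0.15 and 0.08 on the log2 scale) were below the median of all pairs. The reader genes Ythdf2 and Ythdf3, whose proteins bind marked RNA in the cytoplasm, had 19.7 against 10.4 and 35.9 against 20.5. Ythdc1, the nuclear reader gene, had 2.17 in Dac51, 1.84 in shFto and no shNC peak. Igf2bp3 had a peak in shNC only, at 11.1 and with a log10 FDR score of −1.44, near the weakest in the list. Of 14 readers 8 had a Dac51 peak and 7 a shNC peak, near the 54.9% and 47.8% of all genes at 10 CPM or more. All 6 reader pairs were higher in Dac51, none 2-fold. Over all genes with a pair, 79.1% were higher and 25.5% 2-fold higher.

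Of 25 genes for glycolysis and lactate handling, 24 reached 1 CPM, 9 had a Dac51 peak and 8 a shNC peak. Over all genes from 188 CPM up the shares were 45.4% and 37.1%. Slc2a1, the gene of the glucose transporter GLUT1, had 9.24 in Dac51, 4.98 in shNC and 9.23 in shFto. Hk2, which encodes the hexokinase that traps glucose in the cell, had 12.3, 8.21 and 8.64 for its strongest pair among 4 peaks in each of the first lists. The lactate exporter gene Slc16a3 had 4.70, 3.15 and 6.09. Slc16a1, which encodes the other main lactate carrier, was lower after Dac51 at 2.11 against 3.47. Aldoa, at 2197 CPM on average, had a Dac51 peak of only 1.27 near its start. Of the 6 paired genes 5 were higher in Dac51 and none was 2-fold higher, with a median log2 ratio of 0.56, close to the 0.54 of all genes.

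Most immediate early and feedback genes were marked in both lists. Of 26 genes of the EGR, NR4A and Sprouty list, 23 had a Dac51 peak and 22 a shNC peak. The shares over all genes at 10 CPM or more were 54.9% and 47.8%. In the list the top pair was higher in Dac51 for 21 of 22 and 2-fold higher for 9, with a median log2 ratio of 0.89. Over all genes with a pair these values were 79.1%, 25.5% and 0.54. Klf2, a zinc finger factor gene, had 55.6 in Dac51, 12.2 in shNC and 117 in shFto, at 3.52 CPM. Spry1, a brake on receptor tyrosine kinase signalling, had 62.1, 15.4 and 24.5, at 17.9 CPM. Zfp36l2, whose protein directs RNA decay, had 28.1, 11.9 and 14.7, at 64.6 CPM. Nr4a3, an orphan nuclear receptor gene, had 6.94, 2.47 and 3.80. Nr4a2 had a peak in Dac51 only, at 21.1 with a log10 FDR score of −4.77.

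Signalling and chromatin genes held many paired peaks too. Among all genes at 10 CPM or more, 54.9% had a Dac51 peak and 47.8% a shNC peak. In the BMP, TGF-beta and ID list 18 of 24 genes had a Dac51 peak and 14 a shNC peak. Of its 14 top pairs 13 were higher in Dac51, against 79.1% over all genes with a pair. Skil, a repressor of SMAD proteins, had 21.8 against 5.72, the receptor gene Bmpr2 13.8 against 4.21 and the transducer gene Smad1 15.6 against 4.45. Tgfb2, the gene of a TGF-beta ligand, went the other way with 48.6 in Dac51, 107 in shNC and 89.2 in shFto, at 5.86 CPM. Of 32 histone lysine methyltransferase and demethylase genes 26 had a peak in each list, and 18 of 24 top pairs were higher in Dac51, with 8 of them 2-fold higher and 2 of the 24 2-fold lower. Over all genes with a pair, 79.1% were higher, 25.5% 2-fold higher and 3.07% 2-fold lower. The median log2 ratio of the list was 0.58, against 0.54 over all genes with a pair. The 4 genes with the largest ratios were higher in Dac51. Kdm5a had 12.2 against 3.53, Setdb1 17.1 against 5.76, Ehmt1 10.5 against 3.82 and Kdm2a 24.6 against 9.09.

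The interferon response genes as a list stood close to all genes. Of 19 paired genes 16 were higher in Dac51 and 4 were 2-fold higher, with a median log2 ratio of 0.51, against 79.1%, 25.5% and 0.54 over all genes with a pair. The 4 were receptor and signal genes. Ifngr1, the receptor gene for interferon gamma, had 26.4 in Dac51, 7.06 in shNC and 12.9 in shFto. Stat2, which carries the type I signal to the nucleus, had 30.2, 8.32 and 20.3. Ifnar1 and Ifnar2, the receptor genes for type I interferon, had 14.9 against 5.03 and 31.7 against 15.1. Cd274, which encodes the checkpoint ligand PD-L1, had 8.45 in Dac51, 3.56 in shNC and 10.8 in shFto, at 6.09 CPM. Cd276, another ligand of that family, had 10.6 against 4.17 with log10 FDR scores of only −1.68 and −3.06.

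In MHC class I presentation, 7 of 18 genes had a Dac51 peak and 5 a shNC peak. The shares over all genes at 10 CPM or more were 54.9% and 47.8%. Of the listed genes 3 were in both, 4 in Dac51 and not shNC, and 2 in shNC and not Dac51. Over all genes with a peak in either list, 17.0% were in Dac51 only and 6.65% in shNC only. With so few genes the list cannot be told apart from all genes. H2-Q4 had 42.9 in Dac51 and 11 in shNC, and H2-K1 had 1.47 and 1.36. Reads of class I genes can be shared with near-identical copies, so these values are uncertain. Tapbp, which encodes the chaperone that loads peptides, had a peak of 24.6 in Dac51 at its annotated start and none in the other lists. Psmb10, which encodes an immunoproteasome subunit, had the reverse, a shNC peak of 13.3 at its annotated start and none in the other lists, with a log10 FDR score of −2.17 against −11.7 for Tapbp. Tapbpl had a shNC peak of 3.33 and a shFto peak of 7.33, and none in Dac51.

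Stress genes had more members with a Dac51 peak than with a shNC peak. Of 21 ATF4 stress response genes 13 had a Dac51 peak and 7 a shNC peak, and of 20 genes for endoplasmic reticulum chaperones and the unfolded protein response 15 and 9. In each list 6 genes had a peak in Dac51 and not in shNC, and none the reverse. Over all genes with a peak in either list, 17.0% were in Dac51 only (1083 of 6388) and 6.65% in shNC only (425). Ddit3, which encodes the stress factor CHOP, had 5.83 in Dac51 and 5.47 in shFto with a log10 FDR score of −103 in Dac51, for a peak at chr10:127295998-127296288, next to the gene end. Its shNC RNA stood at 32.8, 37 and 38.9 CPM. Atf5 had 6.92 at its annotated start. Pdia3, a disulfide isomerase gene, had 1.99 in Dac51 and 2.13 in shFto. Among the paired genes, Chac1, which encodes a glutathione-degrading enzyme, had 35.6 against 11.4, the amino acid carrier gene Slc7a5 16.2 against 7.73, and Hspa5, the gene of the main chaperone BiP, 17.6 against 8.10.

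Cell cycle, ribosomal and respiratory genes had few shNC peaks. Of 40 S, G2 and M phase genes, 18 had a Dac51 peak and 9 a shNC peak, and all 9 pairs were higher in Dac51. Of all genes at 10 CPM or more, 54.9% had a Dac51 peak and 47.8% a shNC peak. Over all genes with a pair, the top pair was higher in Dac51 in 79.1%. Cenpe, a kinetochore motor gene, had 7 Dac51 peaks against 2, with 6.54 against 2.86 for the top pair. Kif11, the spindle motor gene, had 5.27 against 2.04. Of 36 cytosolic ribosomal protein genes 8 had a peak in Dac51 and not in shNC, and 1 the reverse. Over all genes with a peak in either list, 17.0% were in Dac51 and not in shNC, and 6.65% the reverse. The strongest values of the 8 were 4.75 for Rpl14, 2.93 for Rpl27 and 2.74 for Rpl4, at mean RNA levels of 713, 730 and 1586 CPM. The shFto list also named these genes, at 1.94, 1.77 and 1.98. Ribosomal protein genes have many processed pseudogenes, so reads assigned to them are uncertain. Of 36 oxidative phosphorylation genes 3 had a Dac51 peak (2.48 for Atp5b, 1.77 for Uqcrc2 and 1.51 for Cycs) and none a shNC peak. The shFto list named Uqcrc2 too, with a peak of 13.7 elsewhere in the gene, and not Atp5b or Cycs.

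**Figure D4:**
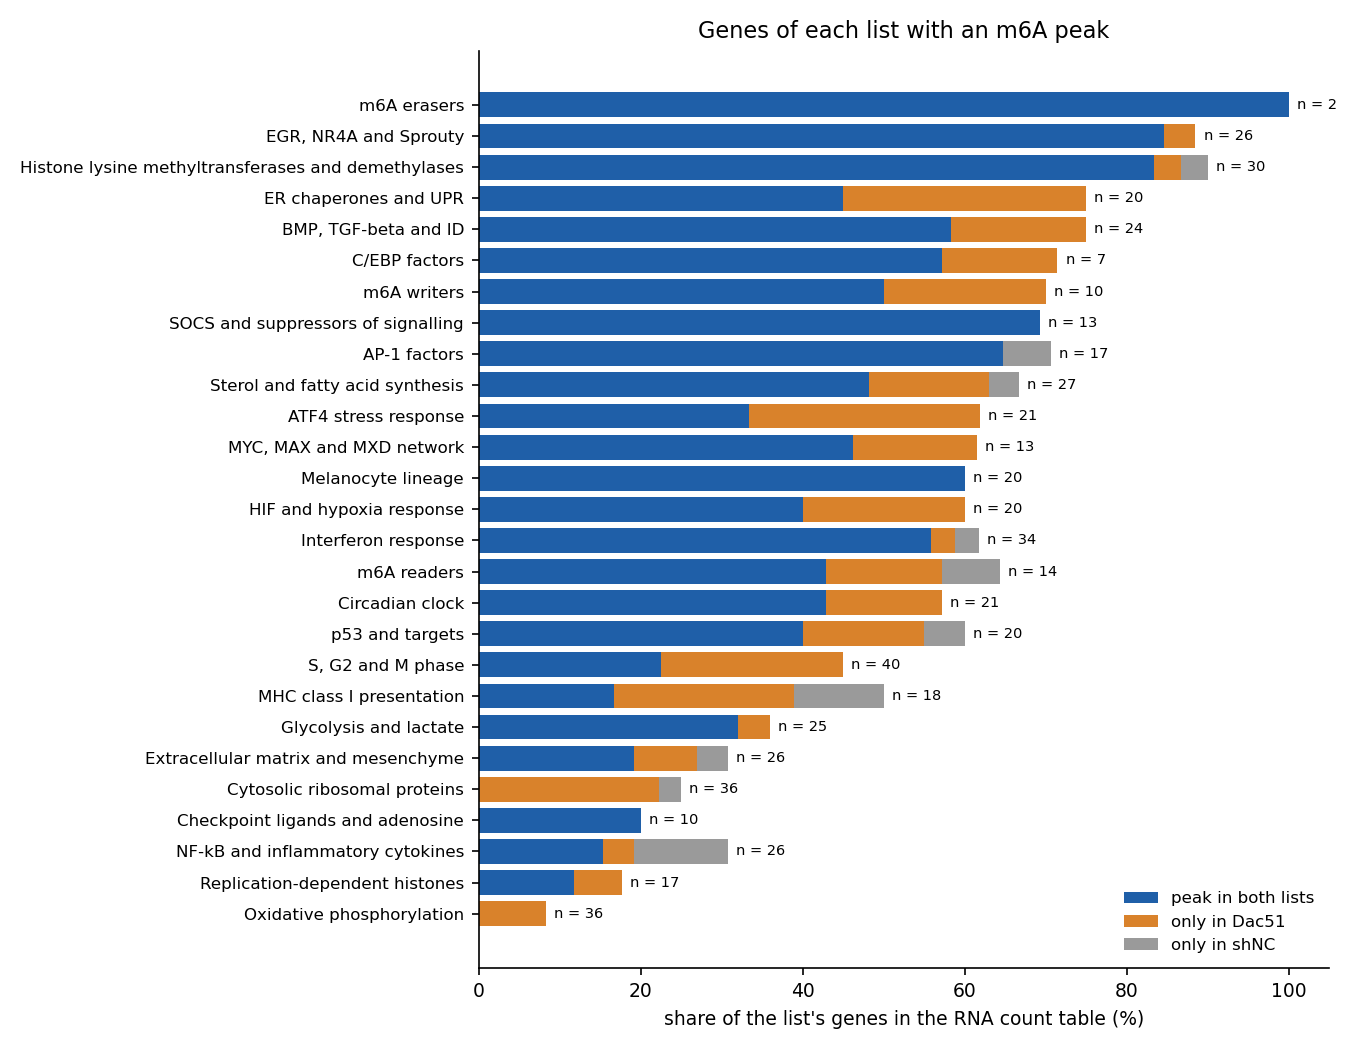
For each of 27 gene lists, the share of its genes in the RNA count table that had a peak in both lists (blue), only in Dac51 (orange) or only in shNC (grey), with the number of genes beside each bar. Dac51-only genes take 6 of 20 chaperone genes and 8 of 36 ribosomal protein genes, and none of the 20 melanocyte genes. They make up 17.0% of all genes with a peak in either list.

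The same melanocyte genes had a peak in both lists. Their number was 12 of 20, and all 12 were in both. Over all genes with a peak in either list, 17.0% were in Dac51 only and 6.65% in shNC only. At those shares 12 genes would hold few of either kind, so their absence does not set the list apart. Mitf, the master factor gene of the lineage, had 6.96 in Dac51, 4.28 in shNC and 8.17 in shFto for its strongest peak. Pmel, a melanosome matrix gene, had 5.01, 2.80 and 3.35, and the receptor gene Mc1r 11.9, 6.31 and 10.2. Of the 12 pairs 10 were higher in Dac51 and none was 2-fold higher, with a median log2 ratio of 0.52. Over all genes with a pair these values were 79.1%, 25.5% and 0.54. Dct and Mlana, pigment genes at 4711 and 881 CPM, had no peak in the Dac51 or the shNC list.

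The pairs with the highest ratios, among those with a log10 FDR score of −5 or lower in both lists and a gene at 10 CPM or more, were led by Jun of the AP-1 list, whose rank rests on the matching described above. St6galnac4, a sialyltransferase gene, followed with 156 in Dac51, 8.24 in shNC and 15.9 in shFto at chr2:32597491-32597789. Gpr157 had the highest fold enrichment of the whole Dac51 list, 364, against 23.5 in shNC and 104 in shFto. Its RNA stood at 10.2 CPM, in the range where pairs spread most. Ddx11, a DNA helicase gene, had 206, 13.1 and 24.7 at chr17:66151064-66151452. Tab1, which encodes an activator of the kinase TAK1, had 100, 8.69 and 15.4. Anapc7, a subunit gene of the anaphase-promoting complex, had 31.0, 2.65 and 4.22 at 111 CPM, well above the level at which pairs spread most. Tfpi, a coagulation inhibitor gene, had 42.2, 2.72 and 12.2 at 76.2 CPM. Palm2 had 83.8, 7.36 and 48.9 at 16.9 CPM. For St6galnac4, Gpr157, Ddx11, Tab1, Anapc7, Tfpi and Palm2 the shFto value lay between the other values. The genes were picked for a high Dac51 value over a low shNC value, and this choice by itself favours such an order. Ppp1r26 and Dnajc14 also stood in this group, with merged peaks. Ppp1r26 had a Dac51 peak of 244 over 2 shNC peaks of 14.1 and 15.0, and Dnajc14 one of 40.0 over shNC peaks of 2.52 and 20.8, for which the ratio to the stronger partner was 0.94 on the log2 scale. In shFto the overlapping peak of Dnajc14 had 46.8, above the Dac51 value. The shFto list split the stretch of Ppp1r26 into peaks of 14.1, 42.3 and 22.8.

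The pairs with the lowest ratios had higher values in the untreated cells. Nup210, a nuclear pore gene at 179 CPM, had 3.11 in Dac51, 23.3 in shNC and 3.32 in shFto at chr6:91013097-91013396. Zfhx3, a large homeobox factor gene with 7 peaks in each list, had 10.6, 64.5 and 3.55 for this one. Taf5l had 8.48, 48.9 and 18.0, the zinc finger gene Zscan29 15.0, 83.0 and 32.2, and Plekhm3 13.1, 52.8 and 13.3. The RNA of Plekhm3 stood at 13.5 CPM, in the range where pairs spread most. Tagap1 had 27.0, 146 and 29.7 at 15.2 CPM, Rgs3 had 8.45, 42.2 and 13.7, and Tulp4 had 10.6, 40.0 and 5.98. The zinc finger gene Zbtb48 had 7.92, 39.5 and 34.9, with the shFto value near that of shNC. Ccdc82 had 5.16, 22.2 and 30.0, with the shFto value above that of shNC. The shFto value was below the shNC value in all of these genes except Ccdc82. The genes were picked for a high shNC value over a low Dac51 value, and this choice by itself favours that order. The 3 libraries allow no test of which of them stands apart.

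Genes with a Dac51 peak and no shNC peak, called Dac51-only here whether or not the shFto list names them, mostly had 1 weak peak. Of the 1083 genes, 705 (65.1%) were also in the shFto list. That share is near the one for all genes of similar RNA level. From 37.8 to 53.1 CPM, 59.8% of all genes had a shFto peak. Among all 1083, 974 had 1 peak, the median highest fold enrichment was 2.76, and the median best log10 FDR score was −4.61. For the 4880 genes in both lists those medians were 10.6 and −55.5. The RNA level did not set the Dac51-only genes apart, with a median of 41.8 CPM against 40.0 for genes in both. The 425 shNC-only genes had a median of 13.8 CPM, a median highest fold enrichment of 3.58 and a median best score of −2.55. A log10 FDR score of −5 or lower was reached by 495 Dac51-only and 48 shNC-only genes.

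After Ddit3 (−103), the best-scored Dac51-only genes at 10 CPM or more included Tomm70a, Atp5g3 and Rpl4. Tomm70a, which encodes a receptor of the mitochondrial import machinery, had 4.02 in Dac51 and 4.03 in shFto with a score of −55.9. Trp53inp1, a p53 target gene, had 4.14 and 4.2. Cdkn1a, which encodes the cell cycle inhibitor p21, had 12.7 in Dac51 with its 5′ edge 37 bases from an annotated start and no peak in the other lists. Among shNC-only genes the best scores were those of Hsp90aa1 (−17.2), Noa1 (−14.6) and Mypop (−12.8). Their fold enrichments were 1.37, 4.13 and 3.58. Hsp90aa1, a chaperone gene, had the highest RNA level of these 3 at 2634 CPM.

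The genes with most Dac51 peaks were long and had nearly as many shNC peaks. Ahnak, a giant scaffold protein gene, had 14 Dac51 peaks of 1.97 to 21.1 and 12 shNC peaks of 2.07 to 17.9. Spen, which encodes a transcriptional repressor that binds RNA, had 12 of 1.47 to 45.6 against 11 of 1.40 to 30.0. Fat1, an atypical cadherin gene, had 12 of 1.5 to 36.4 against 10 of 1.98 to 18.4. Kmt2a and Kmt2d, histone methyltransferase genes, had 12 and 11 against 9 and 10.

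Peaks at annotated starts took a larger share of the Dac51 list than of the shNC list. As given beside the sequences, 188 of 7553 Dac51 peaks (2.49%) lay there, against 94 of 6501 shNC peaks (1.45%) and 152 of 8279 shFto peaks (1.84%). The edge fell exactly on the annotated base in 121, 52 and 108 of them. The share was 4.44% (96 of 2160) among Dac51 peaks that shared no base with a shNC peak, and 1.71% (92 of 5393) among those that did. Among shNC peaks without a Dac51 partner it was 1.97% (18 of 915). The order of Dac51 above shNC held with other choices of peaks. It was 2.25% against 1.56% among peaks with a log10 FDR score of −5 or lower, 1.97% against 1.35% at a fold enrichment of 3 or more, and 2.32% against 1.45% with lists of equal length.

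**Figure D5:**
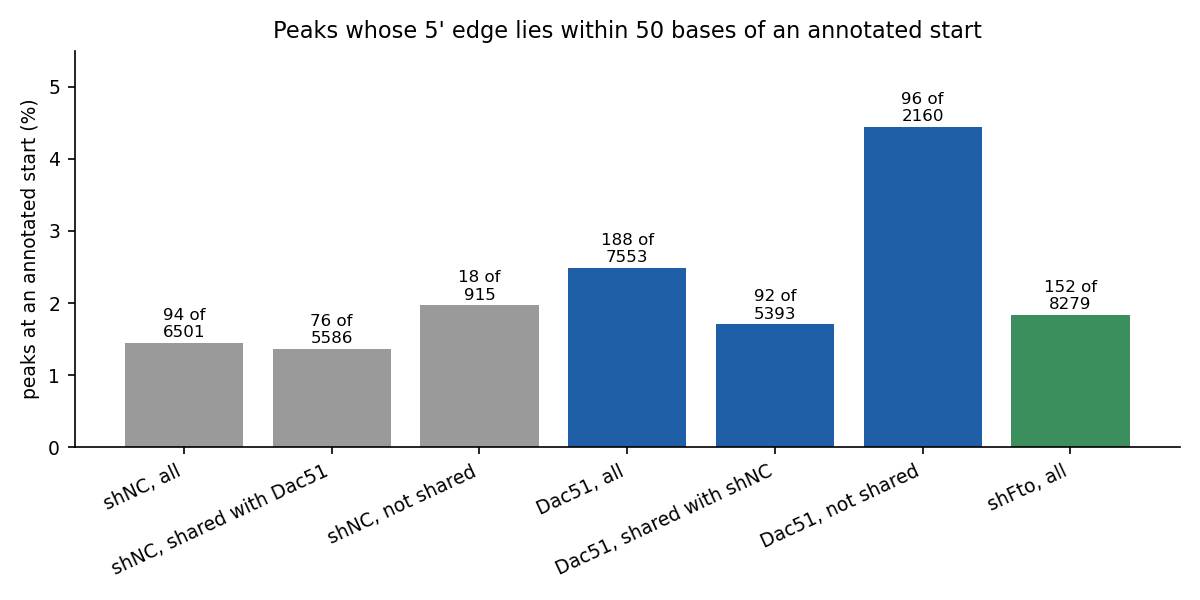
The share of peaks whose 5′ edge lay within 50 bases of an annotated start, for each list and for its peaks that did or did not share bases with the other list, with the counts above the bars. The bar for Dac51 peaks not shared with shNC, at 4.44%, is the highest of the 7.

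Start peaks in genes without any shNC peak included those of Tapbp (24.6), Cdkn1a (12.7), Atf5 (6.92), Bax (2.49), Hnrnpa2b1 (1.67) and Aldoa (1.27). Bax promotes cell death and Hnrnpa2b1 encodes an RNA-binding protein linked to m6A. These genes had mean RNA levels of 27.1, 87.3, 49.1, 199, 1455 and 2197 CPM in shNC, and the median over all genes with a Dac51 start peak was 68.3 CPM. An A as the first transcribed base, the base that can carry m6Am, was annotated for 30.9% of the 188 Dac51 start peaks, against 24.5% of the 94 shNC and 27.0% of the 152 shFto start peaks. Over 8915 annotated starts of genes at 10 CPM or more the share was 26.8%. The motif GGAC, a frequent form of the m6A consensus, was found on the transcribed strand in the first 50 bases of 21.8% of the Dac51, 29.8% of the shNC and 21.7% of the shFto start peaks, and of 20.4% of all those starts. GTCC, its reverse complement, which marks GGAC on the other strand, was found in 16.0%, 10.6%, 11.8% and 20.8%. Among the 96 Dac51 start peaks that shared no base with a shNC peak, GGAC was found in 16.7% and GTCC in 21.9%. These letters describe the annotated starts only. At the other end of genes, 40.6% of Dac51 and 39.1% of shNC peaks lay within 2 kb of the annotated end. For Dac51 peaks in genes without a shNC peak the share was 55.1%.

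RNA of the genes with Dac51 peaks was compared here between shFto and shNC cells without the compound. Of 11718 genes tested with edgeR's quasi-likelihood test, 3841 (32.8%) passed an adjusted p of 0.05, 1864 higher (15.9%) and 1977 lower (16.9%) in shFto. Of the 1045 tested Dac51-only genes 352 (33.7%) passed, 195 higher and 157 lower, a share close to that of all genes. Of the 1454 tested genes with a pair 2-fold higher in Dac51, 477 (32.8%) passed, 275 higher and 202 lower. Without the first shFto library the counts were 2468, 225 and 286. The direction of the calls depended on the scaling. With library totals in place of TMM factors, 59.96% of all calls were higher in shFto instead of 48.5%, and 65.5% of the Dac51-only calls instead of 55.4%. Among genes named above, Ddit3 RNA was higher in shFto by 0.70 on the log2 scale (SE 0.0974, edgeR adjusted p = 2.67e-05), and Jun RNA was lower at −0.59 (SE 0.0997, edgeR adjusted p = 0.000194). Myc RNA differed by −0.10 (SE 0.0825, edgeR adjusted p = 0.372) and Cebpb RNA by −0.37 (SE 0.172, edgeR adjusted p = 0.107), neither past the threshold. The input library of the Dac51 cells was not analysed here, and whether RNA levels move with the peaks after the compound was not tested.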

How the data were processed

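Fragmented poly(A) RNA was enriched with an m6A antibody kit, per the labels' protocols. Peaks were called by the authors with exomePeak, per the name of the deposited lists. Per the file headers, every peak carries the fold enrichment (the ratio antibody/input), the p-value in the score column, and the logarithms (log10) of p and FDR. Which input library was the control, the annotation and the thresholds are not given in the sources used here, and the depth of the m6A libraries is unknown. The genome build was mm10, and STAR 2.7.0f and Trim Galore 0.6.0 are among the tools listed without a role, per the submitters' processing notes. The deposited RNA tables hold raw counts per gene, per the file headers.

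Genes were taken from the name column. Peaks were paired where exonic blocks shared 1 base or more on the same strand, mutual best by shared bases, and log2 ratios of the authors' fold enrichments were computed. A 2-fold ratio was the rule of size, with no test. Starts and gene ends came from RefSeq, GRCm38.p6. For the Dac51 list 5674 symbols matched a RefSeq gene and 4608 the promoter table.

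RNA counts were tested with edgeR 4.0.16 (TMM, low counts filtered by filterByExpr, Benjamini-Hochberg over 11718 genes, threshold 0.05), and with DESeq2 1.42.0 as an alternative. Because the origin of replicates is not stated, p-values cover library-to-library spread only. On simulated counts for 11718 genes with 200 changed, 89% of 2-fold and 98% of 4-fold changes were recovered and 5.56% of calls were false. Replicate numbers did not pair the samples (correlations of deviations 0.01, 0.04 and −0.02).

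Genes named were 9 fixed genes, up to 4 with the largest absolute ratio and up to 4 with a peak in 1 list from each of 29 gene lists, the 10 largest and 10 smallest ratios, the 10 best-scored genes of each 1-list class, the 5 genes with most peaks, and 6 start sequences. 1 gene that this rule names is not reported here. St3gal1, A930004D18Rik and Dmrta2, named for their place at the 2-fold limit, and the melanocyte and marker genes named by level were chosen after their values were seen, as was the class of peaks at starts. The members and lists were chosen with earlier results of these data known.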

Additional observations from a re-analysis of the deposited data

How the results depend on the processing

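Numbers of peaks, genes and pairs stayed within 1.5 times their value under each alternative run (stricter FDR, fold enrichment of 3 or more, equal list length, spans in place of exonic blocks, 50% overlap, pairs with 1 partner only), except the following. With lists of equal length the Dac51-only genes numbered 707. The shNC-only genes numbered 121 at an FDR score of −5 or lower and 235 among genes at 10 CPM or more. Pairs 2-fold lower numbered 101 at that FDR score. Relative to the median of all pairs the median log2 ratio is 0 by construction, and 575 pairs were 2-fold higher and 519 lower. The ratios of 79 named genes gave 527 values within 1 SD of the pairs and 4 outside it. Centring at the median shifts every ratio by 0.51, less than the SD of 0.78. The 79 centred values could therefore only count as within it. With the partner of highest fold enrichment the values outside were Jun (1.24), Dnajc14 (0.94) and Rbm15 (0.26), and with spans Rbm15 again at 0.26. The sign of a named gene's ratio changed only on centring at the median, in 7 genes with log2 ratios of up to 0.48. Start peaks in Dac51 numbered 109 at a fold enrichment of 3 or more. With the edge exactly at the start they numbered 121, and 52 in shNC. Leaving out 1 RNA library gave 2468 to 4423 genes called in all, 225 to 404 Dac51-only genes and 286 to 554 genes with a pair 2-fold higher, the lowest each time without the first shFto library. With the replicate number as a block, which does not pair the samples here, 3736, 351 and 468 were called. DESeq2 called 3740, 349 and 463. The alternatives for start peaks and the partner with the highest fold enrichment were chosen after seeing the data. The depth of the m6A libraries is unknown, and its part in the number of weak peaks was not tested.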
